A study of Mus musculus with 12 samples.

Results

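RNA from RTF2-deficient mouse embryonic fibroblasts (MEFs) of line 1 was compared with RNA from WT MEFs of that line across all expressed genes. The comparison used 6 of the 12 libraries in the series, 3 from cells of genotype Rtf2-/lox and 3 from Rtf2+/+ cells, chosen by the line and genotype in their labels. The MEFs had been immortalized with SV40, and both genotypes, WT included, received Cre recombinase from a retrovirus 72 hrs before RNA was collected, so exposure to Cre was shared. One Rtf2 allele of the deficient cells lacked exon 3 from the start and the floxed allele lost it after Cre. The paper reports the use of littermate MEFs in general and does not give the embryo of origin of these cells. The 3 libraries of a group were technical replicates of 1 cell line, so p-values measure the spread between libraries and not between embryos, and the difference between genotypes cannot be told apart from any other difference between these 2 cell lines.

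RTF2, replication termination factor 2, is a protein of the replication fork. It is taken off stalled forks through the proteasome shuttle proteins DDI1 and DDI2, and it has been tied to RNase H2, the enzyme that removes RNA embedded in DNA. Its relatives in fission yeast and in Arabidopsis take part in intron splicing.

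The exon missing from the deficient cells is exon 3 of Rtf2, at chr2:172445327-172445420 on the plus strand of GRCm38 in GENCODE M21. It is shown because its loss defines the genotype. Exon 3 is in capitals, with 15 bases of exon 2 before it and 15 bases of exon 4 after it in lower case.
Rtf2 exon 3: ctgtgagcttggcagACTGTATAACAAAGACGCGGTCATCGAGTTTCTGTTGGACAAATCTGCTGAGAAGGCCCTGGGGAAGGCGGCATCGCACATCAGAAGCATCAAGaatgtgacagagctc
The exon has 94 bases, which is not a multiple of 3, so a transcript that joins exon 2 to exon 4 is shifted in frame.

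Depth was alike in the groups, with 41403910 to 42143397 counted reads in the WT libraries and 41989154 to 43042046 in the deficient libraries. Levels are given as CPM, the read count scaled to library size after TMM normalization, and 14263 of 24100 listed genes had enough reads to be tested. The 13 fibroblast markers summed to 23410 to 30830 CPM in WT and 25520 to 32310 CPM in deficient libraries, and collagen genes Col1a1 and Col1a2 were each at 5094 CPM or more in every library. Dcn and Lum, which mark many adult fibroblasts, stayed at or below 1.59 CPM. Markers of other cell types were low, with macrophage markers at 2.48 to 3.70 against 2.67 to 3.37 CPM in sum, while endothelial markers summed to 10.7 to 14.7 CPM in WT and 17.6 to 21.5 CPM in deficient libraries through Kdr and Tek, with Pecam1, Cdh5 and Cldn5 below 0.20 CPM. The epithelial markers summed to 2.08 to 2.39 CPM against 2.79 to 4.54 CPM, the myogenic to 5.10 to 9.14 against 3.22 to 6.63 CPM, the neural, mostly Tubb3 and Map2, to 90.6 to 125 against 89.6 to 133 CPM, and the red blood cell markers stayed below 0.40 CPM with Hbb-bs and Hbb-y at 0. The part of other cell types in the results was not tested. Of the 44 markers listed 29 could be tested and 1 passed, Prrx1, a limb mesenchyme transcription factor, at 269, 207 and 213 CPM in WT and 160, 159 and 180 CPM in deficient libraries. Its adjusted p was 0.047, and 0.053 with the replicate number as a block in line 1, and it was 0.05 or more in 11 of the 12 fits that left out 1 library.

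Rtf2 itself stood at 44.9, 44.8 and 47.2 CPM in the WT libraries and at 5.64, 5.44 and 6.29 CPM in the deficient libraries. Every deficient library was far below every WT library, and the mean was 7.88-fold lower. The log2 fold change was −2.98 (SE 0.083, edgeR quasi-likelihood test, adjusted p = 1.34e-08). The count covers the reads of the whole gene and does not separate exon 3 from the rest. The nearest tested genes on either side did not pass: Cass4 had a log2 fold change of −0.30 (adjusted p = 0.863) and Bmp7 0.77 (adjusted p = 0.712), both at under 1 CPM in each library.

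Loss of RTF2 in line 1 went with lower RNA for more genes than with higher RNA. A gene was called when its Benjamini-Hochberg adjusted p over all genes tested was under 0.05 and its log2 fold change lay beyond 1. By that rule 94 genes (0.659% of those tested) fell and 37 genes (0.259%) rose. At the adjusted p alone 359 genes (2.52%) were lower and 97 (0.68%) were higher. Most genes moved little: without regard to sign, the log2 fold change had a median of 0.13, and 96.6% of genes lay within 1 of no change. The 3 libraries of 1 genotype lay wholly above the 3 of the other for 3005 genes (21.1%), and for each of the 94 and the 37.

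**Figure D1:**
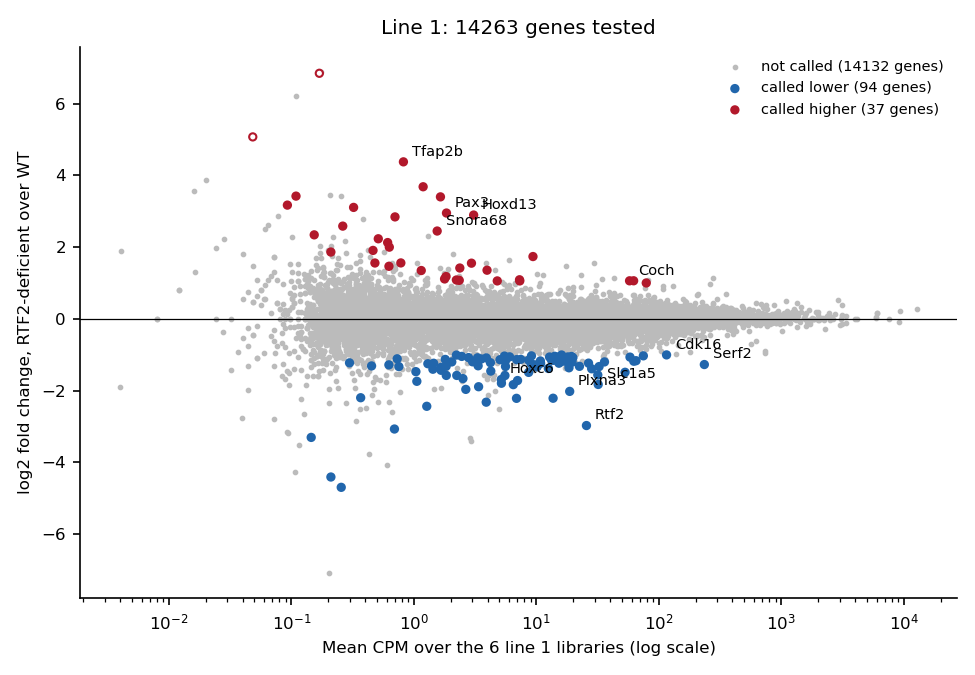
The log2 fold change of RTF2-deficient over WT in line 1 is plotted against the mean CPM of the 6 libraries on a log scale, 1 point per gene tested, with the 94 genes called lower in blue and the 37 called higher in red. The genes called lower had a median WT level of 9.84 CPM and the genes called higher a median deficient level of 2.22 CPM; open symbols mark Hottip and Capn11, which had no read in WT, so that their plotted value depends on the fit.

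The replicate numbers paired the libraries of line 1, since same-numbered WT and deficient libraries deviated together from their group means (r from 0.43 to 0.62 over genes, against −0.45 to 0.07 for other pairs). With this number as a block in line 1 only, a fit chosen after the data were seen, 104 genes were called lower and 46 higher, 392 were lower and 129 higher at the adjusted p alone, and 93 of the 94 and 34 of the 37 kept an adjusted p under 0.05. With a block in each line, 70 genes were called lower and 22 higher, 199 and 43 at the adjusted p alone, and 69 of the 94 and 19 of the 37 kept it. With the line 1 libraries fitted alone and blocked, 196 were called lower and 100 higher, and at the adjusted p alone 2016 (14.7%) were lower and 1969 (14.4%) higher of 13685 tested. Lower genes outnumbered higher ones at the adjusted p in each of these 3 fits, by least in the fit of line 1 alone with the block.

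The genes that fell furthest, past both thresholds and at 1 CPM or more, included membrane proteins and enzymes. Plxna3, an X-linked plexin that serves as a semaphorin co-receptor, went from 31.0, 30.4 and 29.0 CPM in WT to 7.93, 6.30 and 7.97 CPM, a log2 fold change of −2.02 (SE 0.14, adjusted p = 9.03e-05). Slc1a5, the neutral amino acid transporter that carries glutamine, went from 53.9, 46.4 and 49.8 CPM to 16.8, 12.6 and 12.8 CPM (−1.83, SE 0.18, adjusted p = 8.64e-04). In neither gene did the groups come near each other. Pgghg, a glucosidase that acts on hydroxylysine-linked sugars of collagen, fell from 26.2, 21.0 and 20.6 CPM to 5.68, 4.56 and 4.34 CPM (−2.22, SE 0.27). Serhl, a serine hydrolase-like gene, fell from 12.8, 11.6 and 9.70 CPM to 3.01, 2.48 and 1.83 CPM (−2.22, SE 0.24). Abhd14b, a hydrolase of the alpha/beta fold, fell from 6.88, 9.26 and 8.08 CPM to 2.20, 2.55 and 2.22 CPM (−1.80, SE 0.19).

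A few of the steepest declines rested on low or scattered levels. Cox6b2, a testis form of a cytochrome c oxidase subunit, ranged from 4.38 to 8.98 CPM in WT and from 0.69 to 1.93 CPM in deficient libraries (−2.33, SE 0.52). The uncharacterized gene 2810408A11Rik lay between 1.64 and 2.48 CPM in WT and between 0.24 and 0.57 CPM in deficient libraries (−2.44, SE 0.45). Slc24a2, a sodium, calcium and potassium exchanger, had 2.44 CPM in 1 WT library and 0.84 and 0.46 CPM in the others, against 0.10 to 0.19 CPM in deficient libraries (−3.07, SE 0.67), so 1 WT library carried most of its level. Its call was lost in limma voom, with a block in each line, in the line 1 libraries alone and in 6 of 12 fits without 1 library. The calls of Cox6b2 and 2810408A11Rik were lost with a block in each line and in 7 and 4 of those 12 fits.

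Other genes among the 94, chosen here after their values were seen, included some at higher levels. Serf2, a small protein that modifies amyloid aggregation, stood at 349, 331 and 321 CPM in WT and 141, 141 and 132 CPM in deficient libraries (−1.27, SE 0.096, adjusted p = 1.51e-04). Slc39a13, a zinc transporter of the secretory pathway, stood at 79.2, 77.3 and 80.2 CPM against 38.4, 34.9 and 39.5 CPM (−1.07, SE 0.071, adjusted p = 8.09e-05). For both genes the 3 libraries of a group were tight. The cyclin-dependent kinases Cdk5, Cdk10 and Cdk16 had log2 fold changes of −1.25, −1.17 and −1.01. Tyk2, a Janus kinase of cytokine receptors, fell by 1.19 on the log2 scale and Lztr1, an adaptor for ubiquitination of RAS proteins, fell by 1.17. Parp3, an ADP-ribosyltransferase of break repair, went from 86.2, 81.8 and 67.0 CPM to 33.8, 27.8 and 22 CPM (−1.49, SE 0.33), and Mpg, the glycosylase that removes alkylated purines, fell by 1.06.

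**Figure D2:**
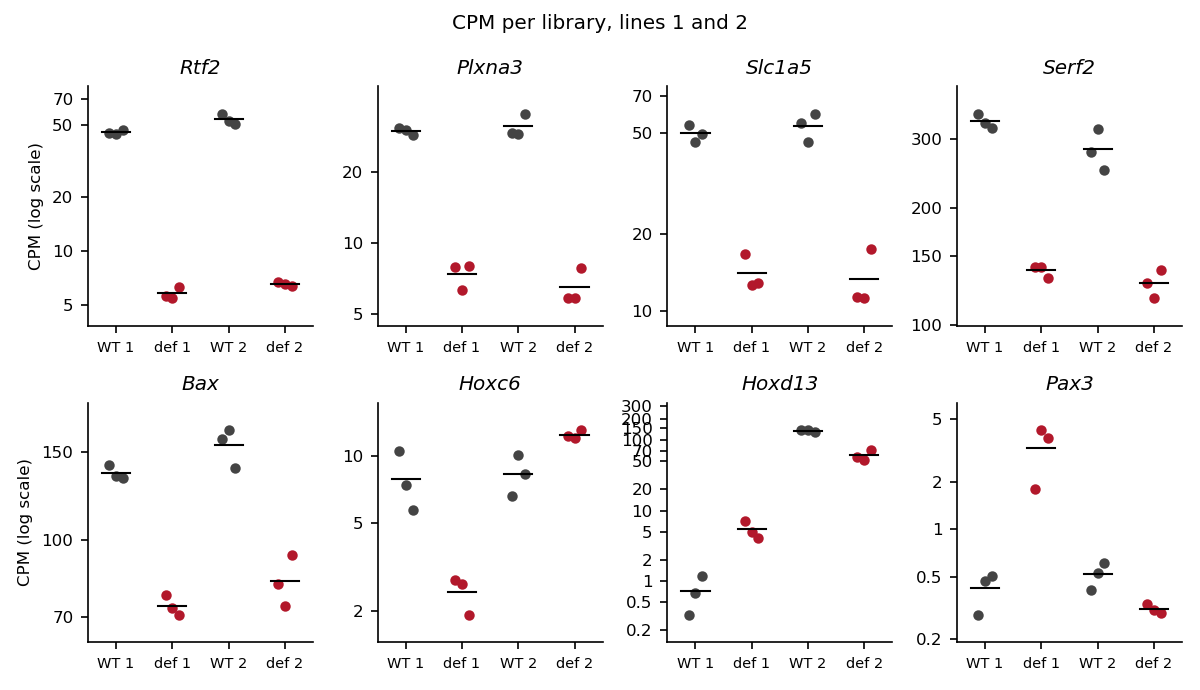
CPM on a log scale is shown for 8 genes in each library of WT and RTF2-deficient (def) MEFs of lines 1 and 2, with 1 point per library and a bar at the mean of 3. Rtf2, Plxna3, Slc1a5, Serf2 and Bax were lower in the deficient libraries of both lines, while Hoxc6 was lower and Hoxd13 and Pax3 were higher in the deficient libraries of line 1, where line 2 had log2 fold changes of 0.58, −1.15 and −0.72.

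The same contrast in MEF line 2 served to show which line 1 changes were also measured there. Line 2 has a limit of its own: Xist, the RNA of the inactive X chromosome, was at 0.13 CPM or less in its WT libraries and at 114 to 173 CPM in its deficient libraries, and the Y-linked gene Ddx3y was at 91.8 to 107 CPM and at 0.07 CPM or less, so sex and genotype cannot be told apart there. In line 1 Xist was at 118 to 125 CPM in WT and 103 to 124 CPM in deficient libraries, and Ddx3y at 0.20 CPM or less in all 6. Line 2 had 1003 genes (7.03%) lower and 773 (5.42%) higher at an adjusted p under 0.05.

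The genes that fell in line 1 mostly also fell in line 2, and a smaller share of the genes that rose also rose there. Of the 94 genes called lower, 79 had a negative log2 fold change in line 2, 73 had an adjusted p under 0.05 in that direction and 61 passed both thresholds. Their median log2 fold change was −1.25 in line 1 and −1.21 in line 2. Of the 37 genes called higher, 17 had a positive log2 fold change in line 2, 7 passed the adjusted p and 5 passed both thresholds, and the median was 1.86 in line 1 and −0.11 in line 2. The difference between the lines was tested as an interaction, which was called at an adjusted p under 0.05 and a difference beyond 1 for 150 genes (1.05%). It was called for 9 of the 94 and for 15 of the 37.

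**Figure D3:**
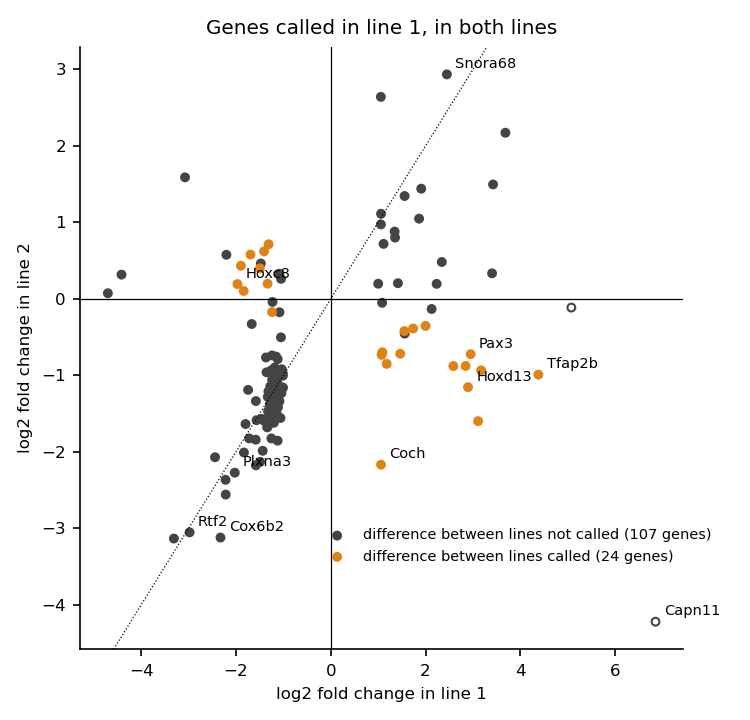
For the 131 genes called in line 1, the log2 fold change in line 2 (y) is plotted against that in line 1 (x), with a dotted line where both are equal and the 24 genes whose difference between lines was called in orange. Plxna3, Rtf2 and Cox6b2 lie near the dotted line, and Pax3, Tfap2b, Hoxd13 and Coch lie below 0 in line 2; the 2 open symbols are Hottip and Capn11, whose values depend on the fit.

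The genes that fell in line 1 differed from other genes in their structure. Over the genes tested the median of a gene's median intron length was 1574 bases, in the longest transcript of GENCODE M21. It was 396 bases for 91 of the 94 genes called lower and 271.5 bases for 71 of the 73 of them that were also lower in line 2, the others having no intron or no structure there. For the genes called higher the comparison is void, since only 28 of 37 had an intron length. Transcripts were richer in G and C, at a median of 56.0% for 93 of the 94 against 49.7% for all genes tested, and the gene's span on the genome was shorter, at 8089 against 20420 bases. The share of genes lower at the adjusted p went down with intron length: 10.2% (131 of 1286 genes) in the decile with the shortest introns, of 73 to 263.5 bases, 4.82% in the next decile and 0.93% in the decile with the longest. The share of higher genes went from 0.23% to 1.32% over the same deciles. In the decile with the shortest introns the median log2 difference was −0.075, −0.10 and −0.11 in the 3 numbered pairs, and the median log2 fold change was −0.10 in line 1 and −0.17 in line 2, so the shift there was small and of one sign in every pair. These are descriptions across genes, which are not independent.

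**Figure D4:**
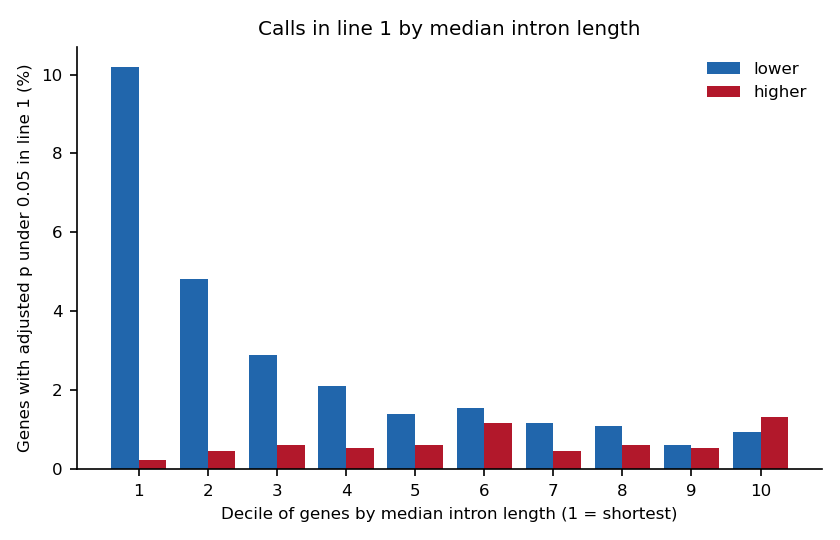
Genes tested are split into deciles by the median length of their introns, 1 being the shortest, and bars give the percent of each decile that was lower (blue) or higher (red) at an adjusted p under 0.05 in line 1. Lower genes made up 10.2% of the first decile and 0.93% of the last, against 2.52% of all genes tested.

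Of 55 replication fork and origin factors tested, 4 were lower and 0 were higher at the adjusted p, against 2.52% and 0.68% of all genes, and the median log2 fold change was −0.097 against 0.0059 over all genes. With the line 1 libraries alone and blocked the counts were 22 lower and 3 higher, where 14.7% and 14.4% of all genes were lower and higher. The 4 were Rtf2 itself, Gins2, a subunit of the CMG helicase, Rfc2, a subunit of the PCNA clamp loader, and Pold1, the catalytic subunit of DNA polymerase delta. Gins2 was at 41.8, 45.6 and 48.5 CPM in WT and at 30.2, 33.6 and 33.1 CPM in deficient libraries (−0.49, SE 0.087), Rfc2 at 52.5, 56.4 and 55.4 against 40.3, 42.1 and 42.8 CPM (−0.39, SE 0.074), and Pold1 had a log2 fold change of −0.38 (SE 0.074). The groups did not overlap in any of them, and each change was well under 2-fold. In fits without 1 library the adjusted p was 0.05 or more in 3 of 12 for Gins2 and 5 of 12 for Rfc2. With a block in each line that of Rfc2 was 0.082. Pcna, the sliding clamp, had a log2 fold change of −0.11 (adjusted p = 0.580) and Prim1, the primase catalytic subunit, −0.16 (adjusted p = 0.544).

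Among 11 genes of RNase H and RNA-DNA hybrids, 1 was lower and 0 higher, beside 2.52% and 0.68% of all genes, and in line 1 alone with the block 2 were lower and 1 higher, beside 14.7% and 14.4%. Rnaseh2c, which codes for a small structural subunit of RNase H2, went from 15.1, 15.2 and 16.1 CPM to 7.76, 8.17 and 7.83 CPM, a 1.95-fold lower mean (log2 fold change −0.97, SE 0.17, adjusted p = 0.0097). The deficient libraries were tight and well below WT. Rnaseh2a, the catalytic subunit, stood at 27.2 to 29.1 CPM in WT and 27.8 to 28.8 CPM in deficient libraries (0.00074, SE 0.090, adjusted p = 0.9999). Rnaseh2b, the other structural subunit, had −0.14 (SE 0.11, adjusted p = 0.665), and Rnaseh1, a separate enzyme that removes longer RNA-DNA hybrids, had −0.11 (SE 0.088). In line 2 the log2 fold change of Rnaseh2c was −1.08 (adjusted p = 0.0022).

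Fork checkpoint genes and p53 targets passed in the fit without a block at a share close to the 2.52% of all genes that were lower. In line 1 alone with the block, 9 of 38 fork checkpoint and repair genes were lower and 3 higher and 5 of 29 p53 targets were lower and 6 higher, beside 14.7% and 14.4% of all genes, and 1 p53 target was higher with the block in line 1. Without a block the 1 lower repair gene was Recql, a DNA helicase of the RecQ family, at 36.1, 28.7 and 33.0 CPM in WT and 18.7, 17.1 and 19.2 CPM in deficient libraries (−0.83, SE 0.13, adjusted p = 0.0058). The 1 lower p53 target was Bax, which permeabilizes mitochondria in apoptosis, at 141, 134 and 133 CPM against 77.4, 72.9 and 70.8 CPM (−0.88, SE 0.094, adjusted p = 9.75e-04). Bax had a log2 fold change of −0.90 in line 2. The p53 targets Cdkn1a, an inhibitor of cyclin-dependent kinases, and Mdm2, the ubiquitin ligase of p53, had adjusted p-values of 0.793 and 0.972, with fold changes of −0.18 and −0.026 on the log2 scale, so the list as a whole did not follow Bax, and its median was −0.026. SV40-immortalized cells carry a viral antigen that binds p53.

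Nuclear genes of mitochondria were described by 2 lists, beside a background of 2.52% lower and 0.68% higher among all genes tested. Of 78 mitochondrial ribosomal protein genes 6 were lower and 0 were higher, with a median log2 fold change of 0.0076, so the list as a whole sat at the level of all genes. Mrpl38 stood at 26.3, 31.9 and 33.7 CPM in WT and at 19.4, 18.9 and 21.6 CPM in deficient libraries (−0.61, SE 0.096). Mrps26 and Mrpl53 had −0.72 (SE 0.11) and −0.51 (SE 0.090), and Mrps25, Mrpl24 and Mrpl2 had −0.87, −0.49 and −0.39. Of 82 nuclear oxidative phosphorylation genes 5 were lower and 0 were higher. Besides Cox6b2 these were complex I genes: Ndufa6, at 30.1, 30.4 and 29.4 CPM in WT and 19.2, 17.6 and 17.2 CPM in deficient libraries (−0.73, SE 0.12), Ndufa3 (−0.77, SE 0.14), Ndufa13 (−0.42, SE 0.092) and Ndufv1 (−0.37, SE 0.086). With the block in line 1, Mrpl2 and Ndufv1 had adjusted p-values of 0.064 and 0.058. With a block in each line, Mrpl53, Ndufa6, Ndufa3 and Ndufa13 had 0.074, 0.059, 0.083 and 0.085. Mrpl53 and Ndufa3 had 0.05 or more in 3 of 12 fits without 1 library, and Ndufa13 in 8. In line 1 alone with the block, 12 of the 78 were lower and 4 higher. Of the 82 there, 13 were lower and 2 higher, beside 14.7% and 14.4% of all genes.

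Rab GTPases, which direct vesicle traffic, had 3 lower members of 51 and none higher, beside 2.52% and 0.68% of all genes. In line 1 alone with the block, 8 were lower and 2 higher, beside 14.7% and 14.4% of all genes. Rab1b, of transport from the endoplasmic reticulum to the Golgi, was at 112, 133 and 124 CPM in WT and 73.1, 82.3 and 75 CPM in deficient libraries (−0.68, SE 0.12). Rab4b, of endosome recycling, was at 22, 23.5 and 19.1 against 12.3, 11.2 and 9.26 CPM (−0.98, SE 0.19), and Rab26 was read 9, 9 and 15 times in WT and 1 time in each deficient library. With a block in each line, Rab4b and Rab26 had adjusted p-values of 0.070 and 0.092. Each had 0.05 or more in 4 of 12 fits without 1 library. The NRF2 target G6pdx, the first enzyme of the pentose phosphate pathway, fell by 0.56 on the log2 scale and was the only member of 25 to pass. Its adjusted p was 0.059 with a block in each line, and 0.05 or more in 4 of 12 fits without 1 library. Tm7sf2, a sterol reductase, was the only member of 25 cholesterol genes to pass (−0.96, SE 0.23, adjusted p = 0.049), with an adjusted p of 0.069 under the block in line 1 and of 0.05 or more in 10 of 12 fits without 1 library.

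Hox genes, the clustered transcription factors that set position along body axes, changed in both directions in line 1. Of 34 tested, 8 were lower and 3 were higher at the adjusted p, beside 2.52% and 0.68% of all genes, and with the block in line 1 these were 7 and 3. In the HoxC cluster on chromosome 15, 6 of 7 were lower, with a median log2 fold change of −1.69. Hoxc8 was at 5.95, 3.44 and 3.33 CPM in WT and 1.38, 0.98 and 0.88 CPM in deficient libraries (−1.97, SE 0.28, adjusted p = 0.0037). Hoxc6 was at 10.6, 7.43 and 5.74 against 2.77, 2.65 and 1.93 CPM (−1.69, SE 0.24), and Hoxc5 at 6.38, 5.6 and 4.03 against 1.24, 1.67 and 1.39 CPM (−1.89, SE 0.32). All 3 deficient libraries lay below all 3 WT libraries for these genes. Hoxc4 and Hoxc9 had −1.31 and −1.33, and Hoxc10 was read 7, 25 and 29 times in WT and 1, 1 and 0 times in deficient libraries. Hoxc13 had under 0.12 CPM in each library and did not pass. With a block in each line, Hoxc4, Hoxc9 and Hoxc10 had adjusted p-values of 0.107, 0.066 and 0.094 and no longer passed.

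In the HoxD cluster on chromosome 2, the 3 genes nearest its 5′ end were higher, while the next in order, Hoxd10 and Hoxd9, did not pass (0.80, adjusted p = 0.660, and −0.12, adjusted p = 0.932). Hoxd13, a gene of the most distal limb, went from 0.33, 0.67 and 1.18 CPM to 7.21, 4.98 and 4.12 CPM (2.90, SE 0.34, adjusted p = 0.0015). Hoxd11 went from 0.14, 0.12 and 0.24 CPM to 1.46, 1.45 and 0.80 CPM (2.84, SE 0.29, adjusted p = 8.64e-04), and Hoxd12 from at most 0.15 CPM to 0.44 to 0.47 CPM (2.59, SE 0.47). These are rises from near absence, and the levels stayed well below those of line 2, where Hoxd13 was at 130 to 138 CPM in WT. Evx2, which adjoins Hoxd13, was read 0, 1 and 1 times in WT and 9, 10 and 2 times in deficient libraries. The adjusted p of Hoxd12 was 0.070 with a block in each line. Hoxd8 was lower (−0.87, adjusted p = 0.040, and 0.055 with the block in line 1), as was Hoxa4 of the HoxA cluster (−0.95, adjusted p = 0.040), and the 8 HoxB genes had log2 fold changes from −0.30 to 0.14, with adjusted p-values in edgeR of 0.774 or more. Hottip, a long RNA at the 5′ end of HoxA, was read 0, 0 and 0 times in WT and 5, 6 and 1 times in deficient libraries. Of the 11 HoxA genes tested, 4 had a negative log2 fold change. Hoxa9, Hoxa10, Hoxa11 and Hoxa13 had 0.55, 1.41, 0.76 and 1.57, with adjusted p-values in edgeR of 0.276, 0.060, 0.189 and 0.146. Hoxa13 was read 8, 6 and 7 times in WT. Hoxa5 had −0.58 (adjusted p = 0.103).

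**Figure D5:**
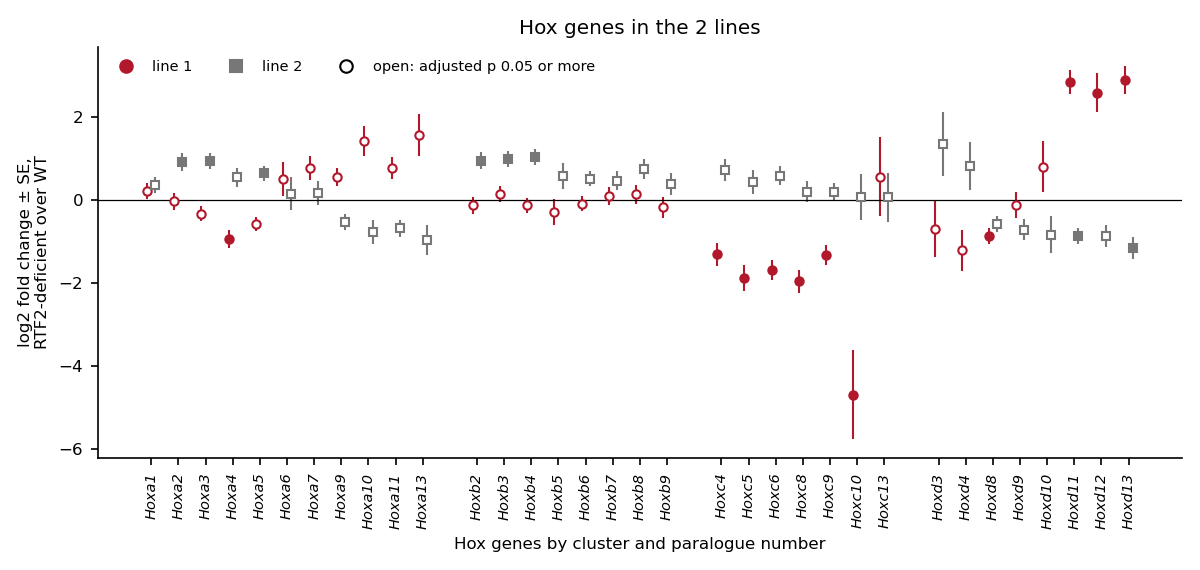
Log2 fold changes of RTF2-deficient over WT with their SE are shown for 34 Hox genes in line 1 (circles) and line 2 (squares), ordered by cluster and paralogue number, with filled symbols where the adjusted p was under 0.05. In line 1, 6 HoxC genes lie below 0 and Hoxd11, Hoxd12 and Hoxd13 lie above 2; the value of Hoxc10 rests on 1, 1 and 0 reads in the deficient libraries.

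The HoxC genes and the 3 higher HoxD genes did not move the same way in line 2. The median of the 7 HoxC genes was 0.20 there, and the interaction was called for 5 of them (Hoxc4, Hoxc5, Hoxc6, Hoxc8 and Hoxc9), with differences of 1.53 to 2.33 on the log2 scale. Hoxd11, Hoxd12 and Hoxd13 had log2 fold changes of −0.88, −0.88 and −1.15 in line 2, and the interaction was called for all 3. Over the Hox genes it was called for 12 of 34, against 1.05% of all genes tested. The other 4 were the HoxA genes Hoxa3, Hoxa4, Hoxa5 and Hoxa10, with differences of 1.27, 1.495, 1.22 and −2.19.

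Other transcription factors of limb, neural crest and craniofacial development were mostly higher where they passed. Of 67 tested, 1 was lower and 5 were higher at the adjusted p, where all genes had 2.52% and 0.68%, and with the block in line 1 these were 1 and 7. Pax3, a regulator of neural crest and muscle precursors, was at 0.29, 0.47 and 0.51 CPM in WT and 1.79, 4.24 and 3.8 CPM in deficient libraries (2.95, SE 0.35, adjusted p = 0.0016). Tfap2b, an AP-2 factor of neural crest and kidney, was at 0.02, 0.05 and 0.14 CPM against 0.81, 1.72 and 2.19 CPM (4.38, SE 0.56, adjusted p = 0.0019). Tfap2b was read 1, 2 and 6 times in WT, and Pax3 12, 19 and 21 times. Msx1, a BMP-responsive homeobox gene, was at 0.29 to 0.40 CPM against 0.78 to 1.15 CPM (1.47, SE 0.25), and Lhx2, a LIM homeobox gene of limb bud and forebrain, at 0.35 to 0.46 against 1.05 to 1.32 CPM (1.56, SE 0.33). Zic1, a zinc finger gene of neural tissue and dermis, rose from 28.1 to 29.7 CPM to 46.9 to 50 CPM (0.76, SE 0.17), with an adjusted p of 0.040, and of 0.062 under the block. The interaction was called for Pax3, Tfap2b and Msx1 and not for Lhx2 (adjusted p = 0.055) or Zic1.

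Retinoic acid patterns limb and axis, and of 18 genes of its synthesis and response 1 was lower and 1 higher, where all genes had 2.52% and 0.68%. Aldh1a2, the main embryonic enzyme of retinoic acid synthesis, was at 0.10, 0.10 and 0.31 CPM in WT and at 4.32, 1.45 and 0.88 CPM in deficient libraries (3.68, SE 0.78, adjusted p = 0.0285), with an adjusted p of 0.0515 under the block in line 1. Its call was also lost in limma voom, with a block in each line, in the line 1 libraries alone and in 4 of 12 fits without 1 library, over which the log2 fold change ran from 2.75 to 4.46. Its 3 deficient libraries were spread widely, and all lay above WT. Crabp1, a cytoplasmic retinoic acid binding protein, went from 19.7, 24.6 and 20.2 CPM to 6.92, 9.37 and 11 CPM (−1.24, SE 0.15, adjusted p = 0.0017). Foxa1, a pioneer factor chosen here after its value was seen, went from 14.8, 14.3 and 9.29 CPM to 5.33, 4.59 and 3.71 CPM (−1.49, SE 0.20).

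Few matrix genes passed in the fit without a block, in which 2.52% of all genes were lower and 0.68% higher. With the block in line 1, 2 lower and 1 higher of 62 matrix glycoprotein genes and 4 lower and 1 higher of 43 proteases and inhibitors passed. In line 1 alone with the block these were 20 and 16 of the 62 and 12 and 8 of the 43, where all genes had 14.7% and 14.4%. Of 62 matrix glycoprotein and elastic fibre genes 2 were lower, Matn2 at 30.9, 33.0 and 33.7 CPM in WT and 21.6, 20.9 and 22.8 CPM in deficient libraries (−0.58, SE 0.076) and Ltbp4, which stores latent TGF-beta, at 81.8 to 88.4 against 50.8 to 65.5 CPM (−0.60, SE 0.14; adjusted p = 0.039, and 0.055 under the block). Spon2, a secreted spondin, went from 14.1, 9.76 and 6.63 CPM to 3.49, 2.55 and 2.49 CPM (−1.84, SE 0.30). Of 43 matrix proteases and inhibitors Mmp2, a gelatinase, was lower, at 797, 680 and 635 CPM against 499, 421 and 378 CPM (−0.70, SE 0.16, with an adjusted p of 0.05 or more in 9 of 12 fits without 1 library), and Adamts18, a metalloprotease, was higher, at 1.94, 2.45 and 2.29 against 5.16, 6.48 and 5.49 CPM (1.36, SE 0.16). Both kept to separate ranges in the genotypes. Hapln1, a link protein of cartilage matrix, rose from 0.02 to 0.10 CPM to 0.42 to 0.79 CPM (3.11, SE 0.43), and Spock3, a secreted proteoglycan, from 0.14 to 0.51 CPM to 2.55 to 3.42 CPM (3.40, SE 0.62). Coch, a matrix protein of the inner ear, rose from 35.3, 33.4 and 43.7 CPM to 74.1, 74.5 and 85.9 CPM (1.06, SE 0.18). None of 39 collagen genes passed in edgeR or limma voom, 1 was higher in DESeq2, and 2 had an unadjusted p under 0.05 in edgeR, beside 1986 of all 14263 genes.

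Among signalling genes, semaphorins, plexins and neuropilins had 1 lower and 2 higher members of 32, beside 2.52% and 0.68% of all genes, and 3 and 3 with the block in line 1. Besides Plxna3, the ligand Sema3e rose from 83.6, 108 and 79.9 CPM to 178, 198 and 133 CPM (0.91, SE 0.18) and the receptor Plxna2 from 77.5, 80.3 and 64.6 CPM to 92.5, 101 and 93.9 CPM (0.37, SE 0.087, adjusted p = 0.047). The adjusted p of Plxna2 was 0.05 or more in 11 of the 12 fits that left out 1 library and, among others, with a block in each line. Bmp1, a protease that matures procollagen, rose by 0.45 (SE 0.079) from 220 to 254 CPM to 299 to 343 CPM, and it and Msx1 were the 2 higher of 28 BMP genes. Among surface and transport genes, Slc7a8, an amino acid exchanger, rose from 0.14 to 0.34 CPM to 0.85 to 1.30 CPM (2.0, SE 0.32), Epb41l4a, a membrane cytoskeleton protein, from 4.01 to 4.66 CPM to 10.6 to 21.2 CPM (1.74, SE 0.24), Mpzl2, an adhesion protein of epithelia, from 1.22 to 2.0 CPM to 3.43 to 5.30 CPM (1.55, SE 0.23) and Elfn1, a synaptic leucine-rich repeat protein, from 1.25 to 1.34 CPM to 2.53 to 4.27 CPM (1.42, SE 0.23). Lad1, of the basement membrane, rose from 3.32, 6.07 and 4.90 CPM to 10.6, 9.96 and 9.22 CPM (1.06, SE 0.24), and its call was lost with a block in each line, in the line 1 libraries alone and in 8 of 12 fits without 1 library.

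Of 28 small nucleolar RNA genes tested, 2 were higher and 0 were lower, beside 0.68% and 2.52% of all genes. Both are H/ACA box RNAs, which guide pseudouridylation and lie inside introns of other genes, and their sequences are shown because they are the small nucleolar RNAs that passed. They are given as in GENCODE M21, which starts both RNAs further 5′ than RefSeq does, and which form was counted is not known. The ACA box, 3 bases from the 3′ end, is in capitals. Snora68 lies at chr8:70895759-70895889 on the minus strand, and Snora41 at chr1:63179004-63179135 on the plus strand inside Eef1b2, with both positions in GRCm38 and GENCODE M21.
Snora68: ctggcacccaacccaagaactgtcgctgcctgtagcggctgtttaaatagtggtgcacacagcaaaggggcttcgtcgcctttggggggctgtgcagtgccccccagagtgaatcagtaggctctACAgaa
Snora41: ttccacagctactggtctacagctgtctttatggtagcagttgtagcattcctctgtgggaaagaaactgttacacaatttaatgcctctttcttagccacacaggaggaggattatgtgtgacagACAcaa
Snora68, of 131 bases, was read 9, 23 and 27 times in WT and 72, 120 and 132 times in deficient libraries (2.45, SE 0.41, adjusted p = 0.0082). Snora41, of 132 bases, was read 8, 11 and 11 times and 25, 29 and 35 times (1.56, SE 0.33, adjusted p = 0.030), and its call was lost with a block in each line (adjusted p = 0.0838) and in 5 of 12 fits without 1 library. In line 2 the log2 fold changes were 2.94 (adjusted p = 0.0012) and 1.34 (adjusted p = 0.016). Eef1b2, the elongation factor gene around Snora41, did not pass, with a log2 fold change of −0.095 (adjusted p = 0.899). Reads from unspliced introns and from the small RNAs themselves cannot be told apart in these counts. In line 1 alone with the block, 5 of the 28 small nucleolar RNA genes were higher and 1 lower, beside 14.4% and 14.7% of all genes. Of 17 Snhg genes, which host small nucleolar RNAs, Snhg16 was higher, at 4.18, 3.72 and 5.6 CPM against 6.33, 8.83 and 11.5 CPM (0.98, SE 0.22, adjusted p = 0.036), a call lost in limma voom, in the line 1 libraries alone and in 7 of 12 fits without 1 library.

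In edgeR over all 12 libraries without a block the remaining lists had no member past the test. Of 44 gene lists described, 24 had none at an adjusted p under 0.05 in that fit, with 59 of their 767 tested members at an unadjusted p under 0.05, beside 1986 of the 14263 genes tested. DESeq2 gave 6 lower and 8 higher members in them, beside 598 and 254 over all genes, and limma voom 1. With the block in line 1, 3 of the 24 lists had members that passed, 2 lower and 2 higher in all, beside 392 and 129 over all genes. The 24 included G2 and mitosis genes, replication-dependent histone genes, core splicing factors, proteasome subunits, heat shock proteins and endoplasmic reticulum chaperones. In the line 1 libraries alone with the block, where 14.4% of all genes were higher, 20 of 50 core splicing factors were higher and 0 lower, and 12 of 20 endoplasmic reticulum chaperones were higher and 1 lower. Their median log2 differences in the numbered pairs were small, at 0.11, 0.10 and 0.041 for the splicing factors and 0.11, 0.13 and 0.12 for the chaperones.

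Interferon-stimulated genes stood apart within that set, since 48 of 50 had a negative log2 fold change, with a median of −1.06 against 0.0059 for all genes tested, and yet none passed in edgeR, DESeq2 or limma voom and none had an unadjusted p under 0.05. The libraries of a genotype differed widely. The median log2 CPM of these genes was 3.75, 1.0 and 1.57 in the WT libraries and 2.02, 0.86 and 0.93 in the deficient libraries. The deficient library was lower in each numbered pair, by 1.73, 0.14 and 0.64, and 1 WT library stood above all others. Isg15, a ubiquitin-like protein induced by interferon, was at 58.3, 6.24 and 9.77 CPM in WT and 16.7, 5.59 and 6.44 CPM in deficient libraries. Without WT replicate 1 the median log2 fold change of the list was −0.0047. In the line 1 libraries alone with the block, 27 of the 50 were lower and 0 were higher, against 14.7% and 14.4% of all genes. With the interferon score as a term in the model, all 94 and all 37 called genes kept their direction with an adjusted p under 0.05. The term was 1 slope over all 12 libraries, where the score ran from 0.86 to 3.75 in line 1 and from 1.71 to 7.62 in line 2. With it 102 genes were called lower and 64 higher. The part of interferon in the calls was not tested.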

How the data were processed

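The series holds 12 RNA-seq libraries, 3 technical replicates for each of 2 genotypes in each of 2 MEF lines, all collected 72 hrs after Cre. The authors deposited raw read counts per gene, which are not normalized. Salmon and tximport appear in their methods but HTSeq, with mm10, in the submitters' processing notes, which leaves the counter unsettled. No source used here gives the strand setting or poly(A) selection. Symbols and positions came from RefSeq (GRCm38.p6, 24045 of 24100 identifiers), and transcripts, introns and sequences from GENCODE M21. Genes passing filterByExpr were TMM-scaled and tested in edgeR 4.0.16 (R 4.3.3, glmQLFit and glmQLFTest) in a layout of 4 groups with all 12 libraries, without a replicate block. The procedure was tested on simulated data with independent libraries, which held neither the replicate pairing of line 1 nor a difference between lines. The standard error is the unshrunken coefficient over the square root of its F statistic. Alternatives used limma 3.58.1 and DESeq2 1.42.0. A gene with no read has an upper limit of 3 counts, 0.072 CPM in the shallowest line 1 library, for counting error only. Named genes were Rtf2 and its neighbours, the 12 most negative and 12 most positive called genes at 1 CPM or more without overlap, the 3 members with the smallest adjusted p in each list, the 5 strongest interactions in each direction and the markers, and further Hox genes, further list members and genes outside the lists were chosen after their values were seen. Members and lists were chosen with earlier results of these data known.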

Additional observations from a re-analysis of the deposited data

Results flagged for a closer look

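By the interaction test in edgeR, 150 genes responded to genotype differently in the 2 lines, of which 64 were more negative and 86 more positive in line 2. Of the genes named by rule, 23 were among them. Values are the log2 fold change in line 2 minus that in line 1.

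Among genes lower in line 1, the difference was 2.16 for Hoxc8, 2.33 for Hoxc5, 2.27 for Hoxc6, 1.94 for Spon2 and 1.07 for Crabp1. Among genes higher in line 1, it was −5.37 for Tfap2b, −3.67 for Pax3, −4.05 for Hoxd13, −3.72 for Hoxd11, −2.35 for Slc7a8, −2.13 for Epb41l4a, −1.97 for Mpzl2, −2.18 for Msx1, −4.71 for Hapln1 and −3.23 for Coch. Plxna2 rose in both lines and by 1.42 more in line 2.

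The other differences came with no call in line 1. Ndnf, a secreted neurotrophic factor, was at 2.36 to 3.59 CPM in WT and 4.61 to 5.49 CPM in deficient libraries of line 1, and its difference was −3.00. Dusp4, a phosphatase of MAP kinases, had 2.61, Lin7a, a polarity scaffold, 2.37 and Kif1a, an axonal kinesin, 1.47. The sex-linked genes had differences of −11.3 for Ddx3y, −5.04 for Kdm5d and 11.2 for Xist, and in line 1 their log2 fold changes were 0.12, 0.24 and −0.055, none past the test. Sex and genotype cannot be told apart in line 2, and the part of sex in the other differences was not tested.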

How the results depend on the processing

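Counts in line 1 were 94 lower and 37 higher past both thresholds and 359 and 97 at the adjusted p alone. RLE and upper-quartile scaling, filters at no limit or at 1 CPM, limma voom and the line 1 libraries alone kept each within 1.5 times. DESeq2 called 61 higher, and 598 lower and 254 higher at the adjusted p, with 268 genes differing between lines. With the interferon score as a term these were 64, 572, 232 and 254. DESeq2 on line 1 alone gave 639 lower and 287 higher at the adjusted p. A test against a 2-fold change (glmTreat) left 2 lower genes, Rtf2 and Plxna3, and 1 higher, Hoxd11. A replicate block in each line, although the numbers did not pair line 2 (r of −0.59, 0.17 and −0.28), called 22 higher, and 199 lower and 43 higher at the adjusted p. The line 1 libraries alone with a replicate block gave 196 and 100, and 2016 and 1969, and the cause was not tested. The block in line 1 only was chosen after seeing the data.

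Leaving out 1 library at a time gave 58 to 100 lower and 19 to 38 higher genes, 159 to 363 and 33 to 119 at the adjusted p, and 59 to 140 differing between lines. The fold change of Rtf2 stayed between −3.05 and −2.94. Past both thresholds, 58 lower and 20 higher genes were called without deficient replicate 2 of line 1. Of these, 56 lower and 20 higher genes were also called with all libraries. Without WT replicate 1 or without WT replicate 2 of line 1, 19 higher genes were called in each fit. Of these, 16 and 17, in that order, were also called with all libraries. At the adjusted p, leaving out any 1 library of line 1 gave 159 to 239 lower and 33 to 53 higher genes, and leaving out deficient replicate 2 of line 2 gave 62 higher. The difference between lines was called for 70 genes without WT replicate 2 of line 1, 90 without deficient replicate 1 and 69 without deficient replicate 2 of line 1, and 68, 86 and 59 without WT replicate 3, deficient replicate 1 and deficient replicate 2 of line 2. Of 56 genes named by rule that passed the adjusted p, 26 lost it in at least 1 of the 12 fits without 1 library (Ndufa13 in 8 and Lhx2 in 6 of them), 20 with a block in each line, 7 in the line 1 libraries alone, 5 in limma voom, 4 with the block in line 1 only or without a filter, and 0 in DESeq2. None of these 56 genes turned its sign in any alternative in which it was tested.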

Other observations

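Genes called in line 1 were counted by chromosome, since Rtf2 and the HoxD cluster both lie on chromosome 2. That chromosome held 15.3% of the called genes and 8.06% of the genes tested. Within 10 Mb of Rtf2, 4 of 176 other genes tested were called, all lower, beside 0.659% lower and 0.259% higher of all genes tested: Npepl1, an aminopeptidase at 38.5, 50.3 and 51.0 CPM in WT and 18.2, 17.4 and 20 CPM in deficient libraries, with Ripor3, Tcfl5 and Pcmtd2. Their log2 fold changes were −1.33, −1.28, −1.33 and −1.21 in line 1 and −1.57, −1.51, −1.28 and −1.09 in line 2. The median of the 176 genes was −0.027.

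A few further genes called in line 1 are described here with their values in line 2. Tbrg4, a mitochondrial RNA-binding protein of the FASTK family, was at 33.4, 39.8 and 48.0 CPM in WT and 69.9, 85.0 and 98.2 CPM in deficient libraries (1.06, SE 0.17, adjusted p = 0.0070 in edgeR) and had 1.11 in line 2, while Fastk, of the same family, had −1.20 and −1.35. Sfn, the 14-3-3 sigma protein, was at 34.7, 53.1 and 70.3 CPM against 90.5, 109 and 117 CPM (1.0, SE 0.20, adjusted p = 0.022) and had 0.20 in line 2, with no called difference between lines. It was not among the 29 genes of the p53 target list, of which 0 were higher in edgeR without a block. Capn11, a calpain, was read 0, 0 and 0 times in WT and 18, 14 and 10 times in deficient libraries of line 1, and 5, 0 and 2 times and 0, 0 and 0 times in line 2. Lepr, the leptin receptor, was at 0.26, 0.17 and 0.24 CPM against 0.41, 0.96 and 1.63 CPM (2.13, SE 0.49, adjusted p = 0.041). These genes were chosen after their values were seen.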
